A study of Mus musculus with 39 samples.

Results

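The genes described here are 10 members of the Bmp pathway: the ligand Bmp7, the receptors Bmpr1a, Bmpr1b and Bmpr2, and the intracellular effectors Smad1, Smad3, Smad4, Smad5, Smad6 and Smad7. A Notch or RBPJ peak was given to a gene when the nearest start site of any protein-coding gene on mm10 (GRCm38) belonged to it. By that rule 39 of 20809 consensus peaks on the nuclear chromosomes, and 46 peaks of the 4 single lists, belonged to these 10 of 21938 protein-coding genes. Of the 10 genes, 9 had at least 1 consensus peak, against 39.7% of all protein-coding genes, and Smad4 had none. RBPJ in RGCs gave the most peaks, and Notch in IPCs gave 1, in an intron of Bmpr1a, or 0 to 3 with other choices of start sites and genes.

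The data come from targeted DamID (TaDa) of the embryonic mouse cortex, in which a fusion of the Dam methylase with RBPJ or Notch leaves methyl groups on GATC sites close to where it sits on chromatin. Plasmids were electroporated in utero at E13.5 into wild-type MF1 embryos, and the electroporated cortex was taken at E14.5, after 24 h. A fragment of the Hes5 promoter (pHes5) drove the fusions in radial glial cells (RGCs, the neural stem cells of the cortex), and a fragment of the Tα1 promoter (pTα1) drove them in intermediate progenitor cells (IPCs), so the cell type of a profile rests on the promoter. RBPJ peaks came from 3 RGC and 3 IPC samples of human RBPJ1, and Notch peaks from 4 samples of each cell type. The 4 IPC Notch samples carried the mouse intracellular domain NICD. Of the 4 RGC Notch samples 2 carried NICD and 2 carried NdECD, which keeps the membrane-spanning part. Dam alone was expressed in 5 RGC and 4 IPC samples, and within a cell type both proteins share these controls. All fusions were expressed from plasmids. Of the 39 samples of the series, 16 (full-length Notch, and Dam alone in neurons or under a ubiquitous promoter) are not used here.

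Each list is pooled: a peak had to be present in every pairing of a fusion sample with a Dam-only sample. The lists held 14097 nuclear peaks for RBPJ in RGCs, 3702 for Notch in RGCs, 5497 for RBPJ in IPCs and 2157 for Notch in IPCs. They hold positions without a height, a fold or a value per sample, so neither depth nor replicate spread is known, and no difference below was tested. Shares of peaks carry Wilson 95% intervals, which account for the number of peaks and for no other error. Peaks of the same gene are neighbours on the chromosome and are not independent of each other.

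Bmp ligands bind a complex of type I receptors, such as Bmpr1a and Bmpr1b, and the type II receptor Bmpr2. The type I receptor then phosphorylates Smad1 and Smad5, which join the common partner Smad4 and enter the nucleus, whereas Smad3 carries the signal of Tgfb and activin receptors. Smad6 and Smad7 are inhibitory Smads that damp the pathway and are themselves induced by it. In the embryonic forebrain Bmp signals pattern the dorsal midline, and in neural progenitors their effect on proliferation and fate changes with stage. RBPJ is the DNA-binding protein of the Notch pathway. With NICD it activates genes, and without NICD it can hold them repressed.

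The consensus peaks carry 1 of 8 cluster numbers, set by k-means on the mean binding intensity of both proteins in both cell types. In clusters 2, 6 and 7 both proteins bind in RGCs and IPCs, and in cluster 4 both bind in RGCs. Cluster 1 stands for Notch in RGCs, clusters 5 and 8 for RBPJ in RGCs, and cluster 3 for RBPJ in IPCs. A cluster therefore describes intensity, and a list describes whether a peak was called, and the 2 did not always name the same protein at these genes.

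The letters below show what lay under the peaks that carry the descriptions: for each gene, 100 bases of the peak called in most lists (the peak closest to a start site among equals) around an RBPJ word. They are the plus strand of mm10 from the GRCm38 reference, and capitals mark the RBPJ core word TTCCCA or its reverse complement TGGGAA. No stretch overlapped an annotated untranslated region. Smad4 had no peak, none could be placed in the peak of Smad5 outside an untranslated region, and no letters are printed for Smad7.
Bmp7, chr2:172935390-172935489: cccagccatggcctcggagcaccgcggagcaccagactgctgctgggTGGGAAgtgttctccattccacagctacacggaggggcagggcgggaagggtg
Bmpr1a, chr14:34502138-34502237: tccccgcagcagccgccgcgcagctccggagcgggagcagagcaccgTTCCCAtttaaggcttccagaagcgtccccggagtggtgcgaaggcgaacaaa
Bmpr1b, chr3:141897154-141897253: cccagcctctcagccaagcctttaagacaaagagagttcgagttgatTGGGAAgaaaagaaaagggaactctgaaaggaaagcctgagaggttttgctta
Bmpr2, chr1:59765105-59765204: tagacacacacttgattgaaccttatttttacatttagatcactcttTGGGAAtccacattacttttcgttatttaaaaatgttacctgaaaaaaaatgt
Smad1, chr8:79399940-79400039: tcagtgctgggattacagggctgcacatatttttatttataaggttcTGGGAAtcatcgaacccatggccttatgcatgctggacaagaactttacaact
Smad3, chr9:63747240-63747339: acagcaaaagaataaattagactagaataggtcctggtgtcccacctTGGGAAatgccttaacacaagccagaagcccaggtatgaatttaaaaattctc
Smad6, chr9:63960065-63960164: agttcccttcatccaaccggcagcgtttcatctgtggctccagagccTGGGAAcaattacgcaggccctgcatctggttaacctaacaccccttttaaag

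The Bmp7 stretch lies 4.66 kb from a start site, inside a consensus peak called for RBPJ and Notch in RGCs. It lies within the RBPJ peak of that region but outside the Notch peak, chr2:172931692-172935250. Its word was part of the longer form TTCCCAC on the other strand. The Bmpr1a word lies 0.343 kb from a start site, within an exon of the antisense transcript Gm17110. In Bmpr2 a GATC site begins 10 bp from the word, and it is the only stretch of the 7 that holds a GATC. In the other 6 the closest GATC of the same peak was 87 bp (Smad1) to 473 bp (Smad6) away.

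Bmp7 (ENSMUSG00000008999) lies on the minus strand at chr2:172868012-172940321 and had 6 consensus peaks. At least as many were found at 3.52% of protein-coding genes. The peak closest to a start site, chr2:172931692-172938784, was the widest of all 39 at 7093 bp, lay 1.31 kb downstream of an internal start site, and had its midpoint in an intron. It was in cluster 5 and both proteins were called there in RGCs, with 10 RBPJ words and 26 GATC sites, and 84.2% of its Notch peak was shared with its RBPJ peak. A cluster 3 peak, chr2:172878220-172880548, was called for RBPJ in IPCs only, 59.5 kb downstream of the start site and with its midpoint in an exon.

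The remaining 4 peaks of Bmp7 lay beyond the 3′ end of the gene, 118 to 181 kb from a start site. The farthest, chr2:172752770-172759351, was in cluster 7 and was called for RBPJ in both cell types, and 99.6% of the IPC peak lay inside the RGC peak. Next to it, chr2:172764336-172768509, also in cluster 7, was called for Notch in RGCs only. A cluster 5 peak at 118 kb and a cluster 1 peak at 141 kb were both called for RBPJ in RGCs only. With 4 RGC RBPJ, 2 RGC Notch and 2 IPC RBPJ peaks, the ligand was thus marked by 3 of the 4 lists, mostly far downstream. Only the 2 peaks inside the gene lay within 100 kb of a start site.

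Bmpr1a (ENSMUSG00000021796), a type I receptor, lies on the minus strand at chr14:34410734-34503341 and had 2 consensus peaks, both in cluster 6. The peak chr14:34500831-34503793 covered a start site, was called for RBPJ in RGCs only, and was 55.8% G and C. The intronic peak chr14:34482906-34484288, 18.2 kb downstream, was called for Notch in IPCs only. It was the only IPC Notch peak among the 10 genes, a count that depended on the annotation: 2 with start sites of protein-coding transcripts only, 3 with 1 start site per gene and 0 with all annotated genes. Cluster 6 stands for both proteins in both cell types, yet each of these peaks was called in a single list. Over all cluster 6 peaks, 64.2% had an RGC RBPJ call and 48.3% an IPC Notch call.

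Bmpr1b (ENSMUSG00000052430), the other type I Bmp receptor of the set, lies on the minus strand at chr3:141837136-142169425 and had 7 consensus peaks, the most of the 10 genes. As many or more were found at 2.68% of protein-coding genes. It is also the longest of the 10, at 332 kb, and all 7 peaks had their midpoints in its introns. They fell in 6 clusters, with 2 in cluster 1 and 1 each in clusters 2, 3, 5, 6 and 7. The gene had 6 RGC RBPJ, 2 RGC Notch and 1 IPC RBPJ peaks.

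3 of these peaks covered a start site of Bmpr1b. At the 5′ end of the gene, chr3:142165250-142171358 was in cluster 5 and was called for RBPJ in RGCs only. At a start site inside the gene, chr3:141931103-141934631 was in cluster 6 and was also called for RBPJ in RGCs only. At another, chr3:141981851-141985425 was in cluster 3 and was called for RBPJ in IPCs only. The start sites of this receptor therefore carried called peaks of RBPJ in both cell types, but at different start sites. Over all consensus peaks, 11.5% were called in both cell types.

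2 Bmpr1b peaks were called for both proteins in RGCs. At chr3:141894548-141900656, in cluster 1 and 30.9 kb from a start site, the RBPJ peak of 2578 bp lay wholly within the Notch peak of 6109 bp. At chr3:142062916-142065346, in cluster 7 and 80.7 kb away, the calls shared 605 bp, or 53.6% of the shorter. A cluster 2 peak, chr3:142060781-142061973, lay beside it and was called for RBPJ in RGCs only. The last peak, chr3:141886515-141889857, was in cluster 1, which stands for Notch in RGCs, and was called for RBPJ in RGCs only.

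Bmpr2 (ENSMUSG00000067336), the type II receptor, lies on the plus strand at chr1:59763400-59879014 and had 3 consensus peaks. All 3 were intronic and were called for RBPJ in RGCs only, in clusters 7, 4 and 5. The cluster 7 peak chr1:59764288-59766233 began 0.888 kb downstream of a start site. The cluster 4 peak chr1:59787973-59791597 lay 24.6 kb downstream, and the cluster 5 peak chr1:59818941-59819993 lay 30.7 kb upstream of a start site inside the gene. The cluster 4 and 7 peaks stand for binding of both proteins, but no Notch peak was called at Bmpr2. Together the 3 receptors had 12 peaks. RBPJ was called in RGCs at 10 of them and in IPCs at 1, and Notch in RGCs at 2 and in IPCs at 1. Over all consensus peaks, RBPJ was called at 67.6% in RGCs and 26.2% in IPCs, and Notch at 17.7% and 10.1%.

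**Figure D1:**
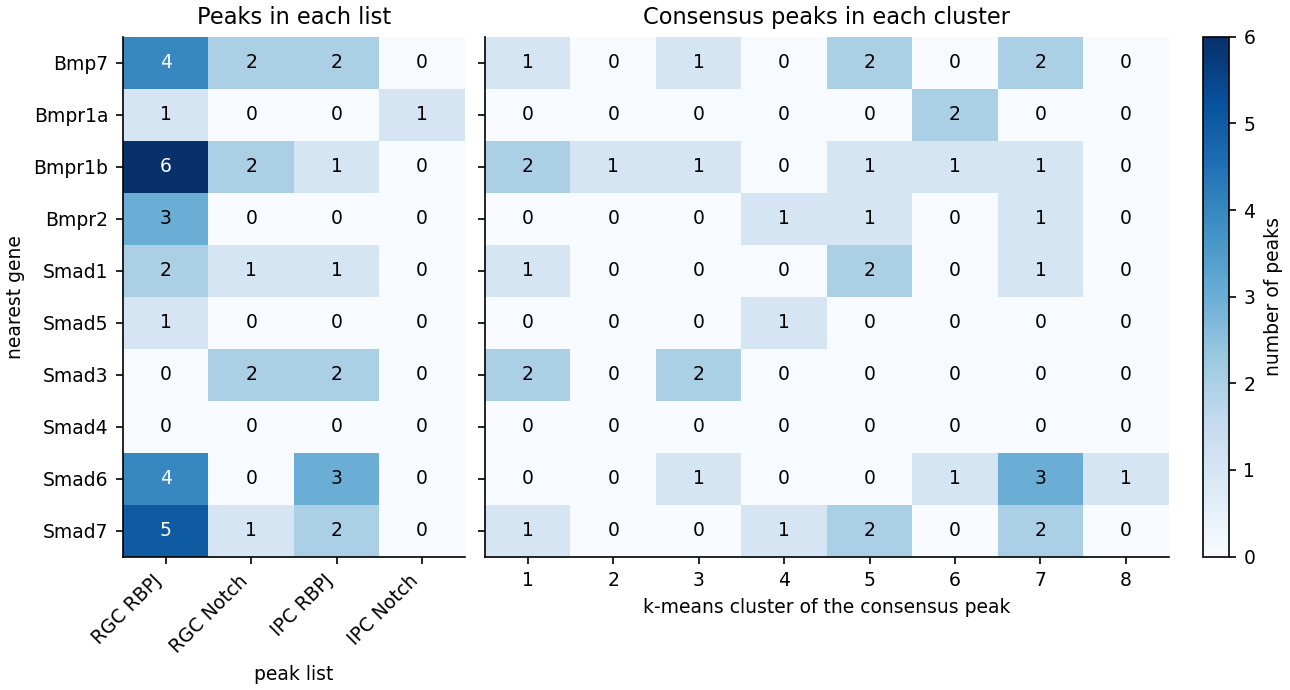
Number of peaks at each of the 10 genes (rows), by peak list on the left and by k-means cluster of the consensus peak on the right, with colour and digits both giving the count. The RGC RBPJ column reaches 6 at Bmpr1b, Smad3 has no RGC RBPJ peak, and the Smad4 row is 0 throughout.

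Smad1 (ENSMUSG00000031681), a Smad phosphorylated by the Bmp receptors, lies on the minus strand at chr8:79338395-79399518 and had 4 consensus peaks. The peak over its start site, chr8:79398752-79400316, was in cluster 1 and was called for Notch in RGCs only. The adjoining cluster 7 peak chr8:79397377-79398286 was called for RBPJ in IPCs only and lay 1.23 kb downstream. Both other peaks were in cluster 5 and were called for RBPJ in RGCs only, at 7.08 kb from an internal start site and at 87.5 kb upstream of the gene. RGC Notch, IPC RBPJ and RGC RBPJ calls lay at separate places of this gene, and none of its peaks was called in 2 lists. Over all consensus peaks, 82.9% were called in 1 list only.

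Smad5 (ENSMUSG00000021540), which acts beside Smad1, lies on the plus strand at chr13:56703010-56742377 and had 1 consensus peak. It covered a start site, chr13:56703439-56705026, was in cluster 4, and was called for RBPJ in RGCs only. At least 1 peak is a common state, held by 39.7% of protein-coding genes. The stretch of genome closest to Smad5 was also the shortest of the 10, at 76.3 kb.

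Smad3 (ENSMUSG00000032402), the effector of Tgfb and activin receptors, lies on the minus strand at chr9:63646767-63757994 and had 4 consensus peaks. It had no RGC RBPJ peak, although that list held 67.6% of all consensus peaks. Its cluster 1 peaks chr9:63745949-63748369 and chr9:63781901-63784873 had an RGC Notch call alone, 2.68 and 23.9 kb upstream of a start site. Its cluster 3 peaks chr9:63719553-63720694 and chr9:63881590-63882585 were called for RBPJ in IPCs only, 7.58 and 124 kb upstream. At this gene the called list and the cluster pattern named the same protein and cell type at 4 of 4 peaks.

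Smad4 (ENSMUSG00000024515), the common partner of the receptor-regulated Smads, lies on the minus strand at chr18:73639009-73703780 and had no peak in any list. No consensus peak overlapped its gene body. The consensus peak closest to any of its 6 start sites lay 66.0 kb away, at chr18:73573609-73576569, belonged to cluster 7, and was called for RBPJ in both cell types. That peak was 0.565 kb from a start site of Mex3c, to which it was assigned. Genes without a consensus peak were 13218 of 21938, or 60.3%.

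Smad6 (ENSMUSG00000036867), an inhibitory Smad that acts mainly on Bmp signalling, lies next to Smad3 on the minus strand at chr9:63953076-64022059 and had 6 consensus peaks. Cluster 7 held 3 of them. Of these, chr9:63958123-63961156 was called for RBPJ in both cell types, with the IPC peak of 2087 bp wholly within the RGC peak, 55.8 kb from a start site. The cluster 7 peak chr9:63966073-63969680 was called for RBPJ in RGCs only, and the cluster 7 peak chr9:64018416-64019510, 1.43 kb from a start site, for RBPJ in IPCs only.

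The cluster 6 peak chr9:63972186-63976027 of Smad6 was called for RBPJ in RGCs only and held 9 RBPJ words, 3 of them TTCCCAC. Beyond the 3′ end of the gene, chr9:63909931-63912515 was the only cluster 8 peak of the 10 genes and was called for RBPJ in RGCs only, 104 kb from a start site. The cluster 3 peak chr9:63937786-63938878 was called for RBPJ in IPCs only, at 78.1 kb. Smad6 thus had 4 RGC RBPJ and 3 IPC RBPJ peaks and no Notch peak in either cell type. Its neighbour Smad3 had Notch peaks in RGCs and no RBPJ peak there. No other protein-coding gene lies between Smad3 and Smad6. Notch was called at 17.7% of all consensus peaks in RGCs and at 10.1% in IPCs, so peaks without a Notch call are common. The difference between these neighbours rests on few peaks and was not tested.

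Smad7 (ENSMUSG00000025880), an inhibitory Smad of both the Bmp and Tgfb branches, lies on the plus strand at chr18:75367529-75395935 and had 6 consensus peaks. The peak over its start site, chr18:75366299-75369473, was in cluster 4 and was called for RBPJ and Notch in RGCs, with the RBPJ peak of 2697 bp wholly within the Notch peak. At 65.2% G and C it was the richest of the 39 in these bases. The next peak, chr18:75370873-75374413, was in cluster 7 and was called for RBPJ in both cell types, with the RGC peak of 2820 bp wholly within the IPC peak. Both lay within 10 kb of a start site, and thus the start of this gene carried called peaks of 3 lists.

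Of the remaining Smad7 peaks, the cluster 7 peak chr18:75384963-75385747 was called for RBPJ in IPCs only and the cluster 5 peak chr18:75389904-75392247 for RBPJ in RGCs only, both within introns of the gene. A cluster 5 peak at 58.0 kb and a cluster 1 peak at 92.5 kb from a start site had an RGC RBPJ call alone and lay in introns of the neighbouring gene Ctif. Smad6 and Smad7 together had 12 peaks, the same number as the 3 receptors. Of the 12, 9 were called for RBPJ in RGCs, 5 for RBPJ in IPCs, 1 for Notch in RGCs and none for Notch in IPCs. Over all consensus peaks these shares were, in that order, 67.6%, 26.2%, 17.7% and 10.1%. Cluster 7 held 5 of the 12, against 2 of the 12 receptor peaks and 11% of all consensus peaks. The difference between these sets of neighbouring peaks was not tested.

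**Figure D2:**
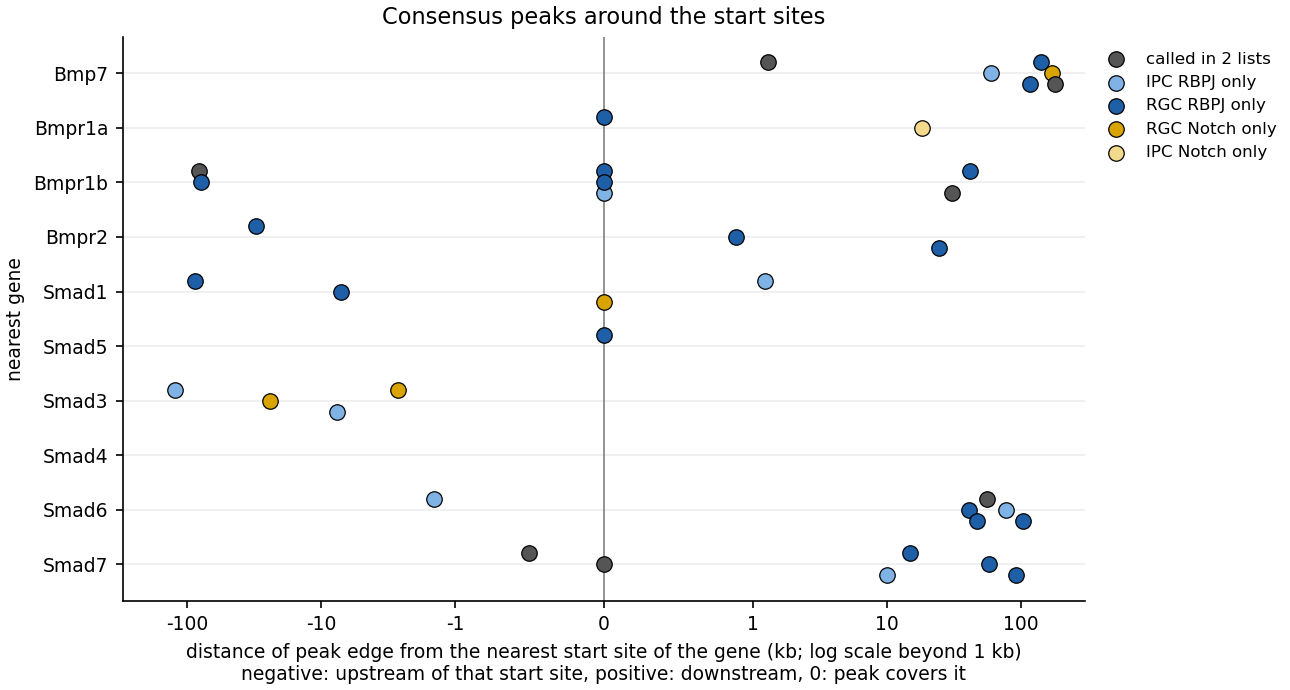
Distance of each of the 39 consensus peaks from the nearest start site of its gene, in kb on an axis that is logarithmic beyond 1 kb, with colour giving the list in which the peak was called. The 7 peaks at 0 cover a start site, 3 of them at Bmpr1b, and 4 of the 6 Bmp7 peaks lie beyond 100 kb downstream.

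Over all 10 genes, 26 of the 39 consensus peaks were called for RBPJ in RGCs, which is 66.7% (51.0 to 79.4), against 67.6% of all consensus peaks. Notch in RGCs was called at 8, or 20.5% (10.8 to 35.5), against 17.7%. RBPJ in IPCs was called at 11, or 28.2% (16.54 to 43.78), against 26.2%. These 3 shares lay close to those of all consensus peaks. Notch in IPCs was called at 1 of 39, or 2.56% (0.454 to 13.2), against 10.1%, which lay within the interval.

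Counted by gene, RBPJ peaks of RGCs were found at 8 of the 10, against 31.7% of all protein-coding genes, and Notch peaks of RGCs at 5, against 11.7%. In IPCs, 6 genes had RBPJ peaks, against 16.4%, and 1 had a Notch peak, against 6.97%. These shares were not adjusted for the longer stretches of genome closest to the 10 genes. Relative to the size of the lists, the genes held 1.84 peaks per 1000 RGC RBPJ peaks (1.26 to 2.70), 2.16 per 1000 RGC Notch peaks (1.10 to 4.26) and 2.001 per 1000 IPC RBPJ peaks (1.12 to 3.58). For IPC Notch the value was 0.464 per 1000 (0.0818 to 2.62). The 4 intervals overlap. The higher number of RGC RBPJ peaks at the genes thus went with the larger size of that list.

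**Figure D3:**
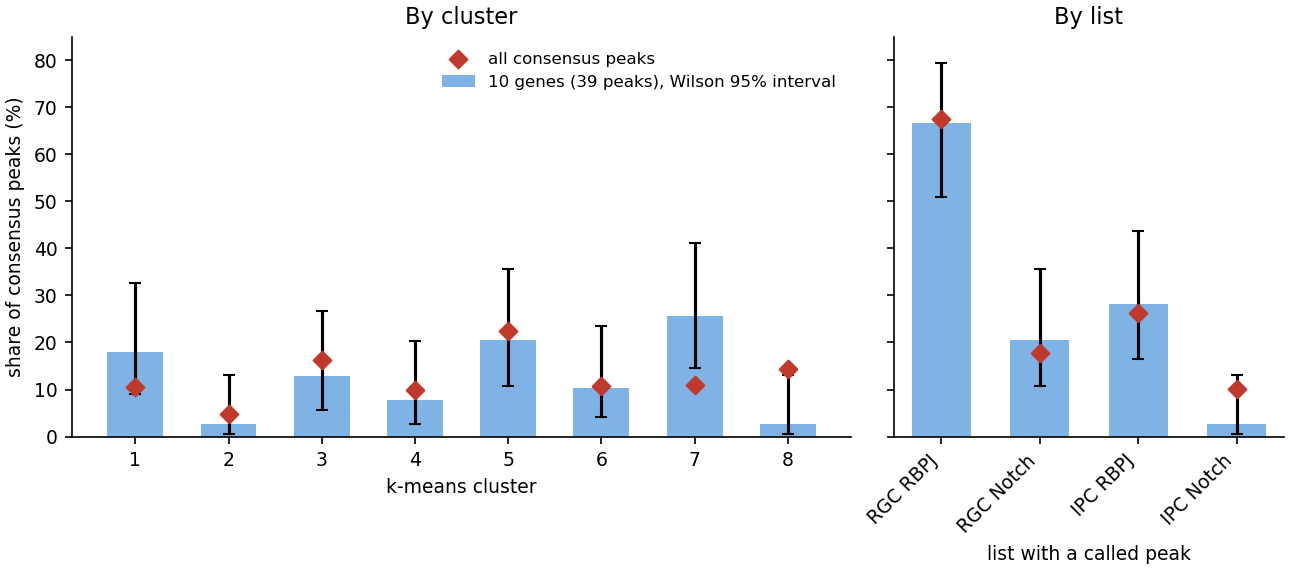
Share of the 39 consensus peaks of the 10 genes (bars, % of consensus peaks, with Wilson 95% intervals) in each k-means cluster and with a called peak in each list, beside the share over all consensus peaks (diamonds). The diamond of cluster 7, at 11%, lies below the interval of 14.6 to 41.1%, and that of cluster 8, at 14.4%, lies above the interval of 0.454 to 13.2%.

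By cluster, 10 of the 39 peaks were in cluster 7, or 25.6% (14.6 to 41.1), against 11% of all consensus peaks. Of the 10, 3 belonged to Smad6, 2 each to Smad7 and Bmp7, and 1 each to Bmpr1b, Bmpr2 and Smad1. Cluster 8 held 1, or 2.56% (0.454 to 13.2), against 14.4%. The share of all peaks fell outside the interval for these clusters, among 8 clusters and 4 lists compared, and was not tested.

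In each of the other 6 clusters the share of all peaks lay within the interval. Cluster 5 held 8 peaks, or 20.5%, against 22.5%, and cluster 1 held 7, or 17.9% (8.98 to 32.7), against 10.5%. Cluster 3 held 5, or 12.8%, against 16.3%, and cluster 6 held 4, or 10.3%, against 10.8%. Cluster 4 held 3, or 7.69%, against 9.79%, and cluster 2 held 1, or 2.56%, against 4.76%. The clusters in which both proteins bind (2, 4, 6 and 7) made up 18 of the 39 peaks, or 46.2% (31.6 to 61.4), against 36.3% of all consensus peaks, and the others 21.

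Most peaks were called in 1 list. Of the 39, 32 were, or 82.1% (67.3 to 91.0), against 82.9% of all consensus peaks, and the other 7 were called in 2 lists. Both proteins were called in RGCs at 4 peaks, or 10.3% (4.06 to 23.6), against 7.77%: 2 of Bmpr1b and 1 each of Bmp7 and Smad7. Peaks of both cell types met at 3, or 7.69% (2.65 to 20.3), against 11.5%, each time for RBPJ, at Bmp7, Smad6 and Smad7. No peak had both proteins called in IPCs, an interval of 0 to 8.97% beside 2.36% of all consensus peaks.

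Calls and clusters were set side by side, since a call needs every pairing of samples and a cluster rests on mean intensity. Of the 18 peaks in clusters 2, 4, 6 and 7, 4 had a called Notch peak in either cell type, or 22.2% (9.001 to 45.2), against 43.4% of all peaks of these clusters, which lay within the interval. Of these 18, 10 were in cluster 7, where Notch calls were few over all peaks (7.86% in RGCs and 12.01% in IPCs), and RGC Notch was called at 2 of the 10. Also in cluster 7, 6 of 10 were called for RBPJ in RGCs and 6 for RBPJ in IPCs, against 73.7% and 52.9% of all cluster 7 peaks. In cluster 1, RGC Notch was called at 4 of 7 and RGC RBPJ at 4 of 7, against 70.8% and 38.6% of all cluster 1 peaks. All 5 cluster 3 peaks were called for RBPJ in IPCs and in no other list, and all 8 cluster 5 peaks had an RGC RBPJ call. Over all peaks of these clusters the shares were 96.7% and 97.6%, so the counts match what most peaks of the clusters showed.

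In position, 28 of the 39 peaks touched the gene to which they were assigned. The midpoint lay in an intron of a protein-coding gene at 27 peaks, 69.2% (53.6 to 81.4), in an exon at 2 and between genes at 10. The introns counted include those of Ctif, which held the distal peaks of Smad7. A start site was covered by 7, or 17.9% (8.98 to 32.7), against 16.6% of all consensus peaks: 3 of Bmpr1b and 1 each of Bmpr1a, Smad1, Smad5 and Smad7. Within 10 kb of a start site lay 15 peaks, within 50 kb 25 and within 100 kb 33. For these 3 distances, the midpoints and the peaks touching their gene, no share over all consensus peaks stands beside the counts. The median distance was 24.6 kb, against 21.1 kb for all consensus peaks, and the farthest was the Bmp7 peak at 181 kb. The median depended on the start sites counted. It was 34368 bp with start sites of protein-coding transcripts only and 55541 bp with 1 start site per gene.

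Genes differ in the room around them, so peaks were also counted per 100 kb of the genome closer to a start site of the gene than to that of any other. Smad6 had 3.29, Bmp7 2.82 and Smad7 2.31 consensus peaks per 100 kb. When all annotated genes could take a peak, the 6 peaks each of Smad6 and Bmp7 fell to 1. Peaks per 100 kb were not recomputed in that setting, so this order is given for protein-coding genes alone. Bmpr1a, Smad1, Bmpr2 and Bmpr1b lay between 2.02 and 2.11, so the 7 peaks of Bmpr1b, spread over 347 kb, were no denser than the 2 of Bmpr1a over 94.9 kb. Smad3 had 1.70, Smad5 1.31 and Smad4 0. The 10 genes together had 2.08 per 100 kb, against 0.763 over the genome and a median of 1.78 over the genes that had a peak. Of all protein-coding genes, 10.1% were at least as dense as Smad6 and 25.0% at least as dense as Smad5, with the other 7 genes that had peaks in between.

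**Figure D4:**
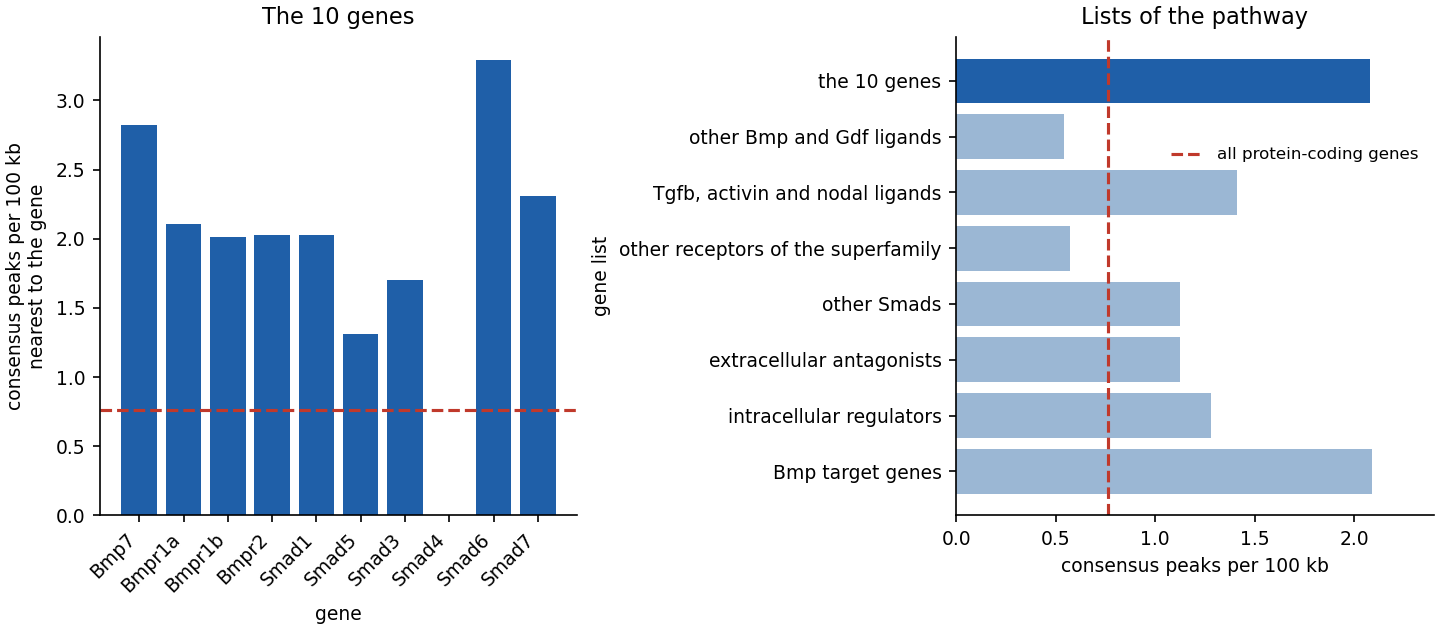
Consensus peaks per 100 kb of genome closest to the start sites of each of the 10 genes (left) and of the gene lists of the pathway (right), with a dashed line at 0.763 for all protein-coding genes. Smad6 has the highest bar at 3.29 and Smad4 is at 0, and on the right the 10 genes and the Bmp target genes lie at 2.08 and 2.09.

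Other genes of the pathway were counted in 7 lists of 59 genes, of which 46, or 78.0%, had a consensus peak. Over all protein-coding genes the share was 39.7%, which stands beside each list below. These counts were not adjusted for the stretch of genome closest to each gene. Of 12 other Bmp and Gdf ligands 8 had a peak, 13 peaks in all, and the most were the 3 each of Bmp2 and Bmp3. All 8 Tgfb, activin and nodal ligands had a peak, 27 in all, led by Inhba, the activin subunit, with 8. Of 11 other receptors of the superfamily 7 had a peak, 18 in all, with 6 at the activin receptor Acvr2a, and of the 2 other Smads Smad2 had 3.

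Among 12 extracellular antagonists, proteins that bind Bmp ligands outside the cell or block the receptor, 10 had a peak. They held 27 peaks, 13 of them at Bmper. Of 7 intracellular regulators 4 had a peak, and Pmepa1 had 5 of the 10. All 7 Bmp target genes had a peak and together held 41, of which the transcriptional regulator Id4 had 22. Per 100 kb the target genes had 2.09 consensus peaks, close to the 2.08 of the 10 genes, and the other Bmp and Gdf ligands had 0.542.

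Notch in IPCs was called at 11 of the 59 other genes (6.97% of all protein-coding genes) and RBPJ in RGCs at 40 (31.7%). RBPJ in IPCs was called at 16 (16.4%) and Notch in RGCs at 17 (11.7%). IPC Notch peaks stood at 3 of the 8 Tgfb, activin and nodal ligands, 3 of the 12 antagonists and 2 of the 7 target genes. They stood at 1 of the 12 other Bmp and Gdf ligands, 1 of the 11 other receptors, 1 of the 2 other Smads and 0 of the 7 intracellular regulators.

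The RBPJ core word TTCCCA was searched on both strands in the central 500 bp of every peak. It was found at 19 of the 39 peaks, or 48.7% (33.9 to 63.8), against 44.5% of all consensus peaks. The longer form TTCCCAC, which contains the core, was found at 9, or 23.1% (12.6 to 38.3), against 13%. Of these 9, Smad6 had 3, Bmp7 and Bmpr1b 2 each, and Bmpr2 and Smad7 1 each. TAATTA, a word read by homeobox proteins such as LHX2, was found at 6, or 15.4% (7.25 to 29.7), against 15.9%.

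Of the words read by Smad proteins, GGCGCC was found in the central 500 bp of 1 peak, or 2.56% (0.454 to 13.2), against 4.82%, and GTCTAGAC at none, an interval of 0 to 8.97% beside 0.428%. Both words read the same on either strand. Over whole peaks GGCGCC was present at 7 of 39, with 6 occurrences in the start site peak of Smad7 and 5 in that of Bmpr1a, and GTCTAGAC was present at 1, the same Smad7 peak. Over whole peaks the core TTCCCA was present at 36 of 39, with 126 occurrences, 33 of them within TTCCCAC. No whole-peak share over all consensus peaks stands beside these counts of GGCGCC, GTCTAGAC and TTCCCA. The 39 peaks were also wider, with a median of 2431 bp against 1890 bp for all. The 3 peaks without TTCCCA were the cluster 7 and the distal cluster 5 peaks of Smad1 and the cluster 1 peak of Bmp7. The median was 1.11 words per kb, against 1.07 for all consensus peaks, and the highest, 3.82 per kb, belonged to the 785 bp peak of Smad7.

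The peaks had a median width of 2431 bp, against 1890 bp for all consensus peaks, and a median of 50.1% G and C, against 45.3%. Some of the genes differed in base composition: the peaks of Bmpr1b and Bmpr2 ran from 36.9 to 45.9%, and those of Smad3 and Smad6 from 47.1 to 54.4%. The other genes overlapped these ranges: Bmpr1a ran from 42.4 to 55.8%, Smad7 from 43.4 to 65.2% and Smad1 from 44.2 to 60%. Bmp7 ran from 45.9 to 53.4%, and the peak of Smad5 was at 50.8%. The share of soft-masked repeats had a median of 16.0%, against 15.2% for all. None of these measures was used to choose the genes.

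Dam methylates GATC and no other word, and such sites were therefore counted in each peak. The 39 peaks had a median of 6 GATC sites, the same as all consensus peaks, and from 0 to 26. The 2 peaks without a GATC were the cluster 3 peaks of Bmp7 and Smad6, both called for RBPJ in IPCs only. A GATC lay 6 bp beyond an edge of the Bmp7 peak and 12 bp beyond an edge of the Smad6 peak, and the sites that flanked them were 3.21 and 1.27 kb apart. The 3575 bp cluster 3 peak of Bmpr1b and the 910 bp cluster 7 peak of Smad1, also called for RBPJ in IPCs only, each held 1 GATC. Of all cluster 3 peaks 51.3% held no GATC, and in each of the other clusters 0.412 to 4.04%. The part of GATC spacing in the IPC RBPJ calls at these genes was not tested.

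**Figure D5:**
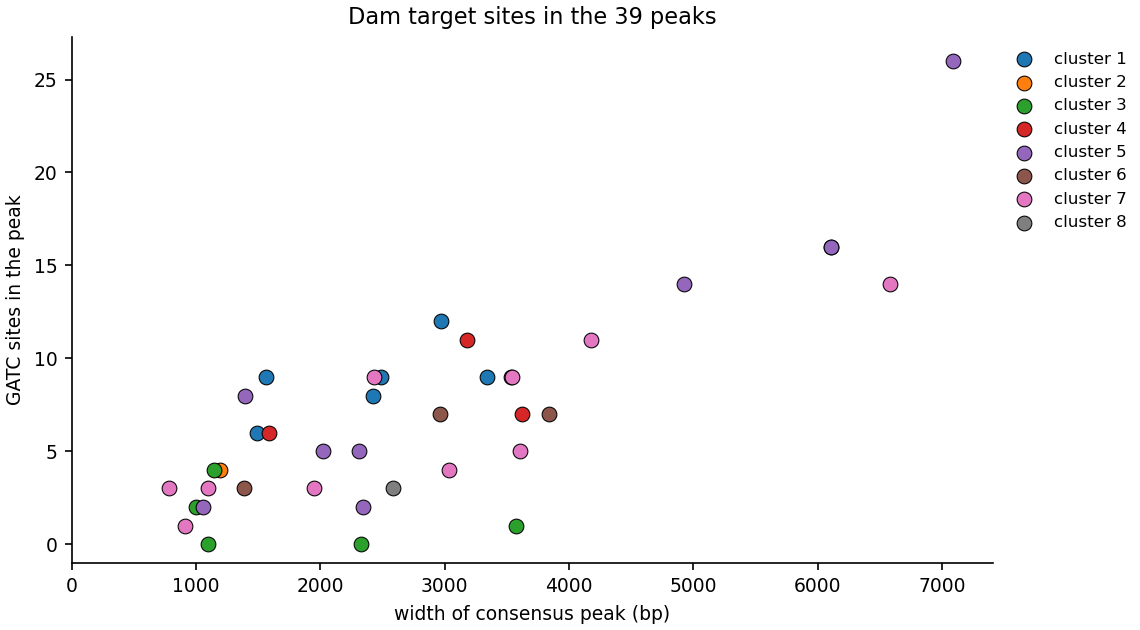
Number of GATC sites, the target of Dam, in each of the 39 consensus peaks (vertical axis) against the width of the peak in bp (horizontal axis), coloured by k-means cluster. The 2 points at 0 and the point with 1 site at 3575 bp are in cluster 3, and 2 Bmpr1b peaks of clusters 1 and 5 coincide at 6109 bp and 16 sites.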

How the data were processed

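The deposited files are 4 peak lists and 1 file of consensus peaks with a cluster number, given as positions in bp. The authors mapped reads to mm10 (MACS2 and mm10 are named in the submitters' processing notes), called broad peaks for each fusion sample against each Dam-only sample, applied an FDR limit, kept peaks found in every such comparison, and merged overlapping peaks of the lists. Scores are constant and there are 0 columns of single samples, so depth per sample could not be read.

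Peaks on 21 nuclear chromosomes were assigned to the nearest start site of any transcript of a protein-coding gene (GENCODE M21, GRCm38), from the peak edge. A consensus peak counted as called where a list peak overlapped it by at least 1 bp. Words were counted on both strands in 500 bp around the midpoint. No test was made, and shares have Wilson 95% intervals. The 10 genes, the pathway lists and the rules were chosen with earlier results of these data known. All 10 genes are described, each pathway list names its gene with the most consensus peaks (ties included), and the 3 genes with at least 8 peaks most like the gene with the most peaks are named. Python 3.11.15 was used with numpy 2.4.6, pandas 2.3.3, scipy 1.17.1, pysam 0.24.0 and matplotlib 3.10.9. The procedures were tested on simulated data: nearest start sites matched a direct search at 500 of 500 positions, overlaps at 500 of 500, and 20 of 20 planted words were found. Alternatives changed the start sites, the genes, the distance, the minimum width, the overlap, and the word and its window.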

Additional observations from a re-analysis of the deposited data

How the results depend on the processing

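Of 193 values recomputed under 12 alternative settings, 159 stayed close to the reported value and 34 moved beyond that. A count stayed if it was within 1.5 times the reported count. The median distance stayed if it was within the interval of the reported median, a wide one of 2684 to 58048 bp. The settings that moved most were those of the annotation. With start sites of protein-coding transcripts only, 2 peaks assigned to Pdlim5 passed to Bmpr1b, which gave 2 IPC Notch peaks, 2 cluster 2 peaks and 1 peak with both proteins called in IPCs. With 1 start site per gene, 4 Pdlim5 peaks passed to Bmpr1b, which then had 11. The 10 genes then had 3 IPC Notch peaks, 2 in each of clusters 2 and 8, 1 with both proteins called in IPCs, 5 called in both cell types and 4 on a start site.

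With all annotated genes, antisense, lincRNA, miRNA, pseudogene and other entries took 17 peaks. That left 22 consensus peaks, 15 RGC RBPJ, 6 IPC RBPJ and 0 IPC Notch peaks, 1 called in both cell types, 12 with TTCCCA, and a median distance of 1368.5 bp. Clusters 1, 3, 5, 6, 7 and 8 then held 4, 2, 5, 2, 6 and 0 peaks. Smad6, Bmp7, Bmpr2 and Bmpr1a had 1 peak each and Smad3 had 2. Measured from the midpoint, 0 peaks lay on a start site, which follows from the measure. Within 100 kb cluster 8 held 0 and Bmp7 2. TTCCCA was found at 36 whole peaks and at 9 in the central 200 bp, and TTCCCAC at 9. A minimum width of 1000 bp, an overlap of 50% and overlap between the list peaks themselves moved no value that far. A stricter score limit was not run, since all scores are equal, and no replicate could be left out because the lists are pooled. No paired analysis was possible because the columns carry no replicate and no result comes from a test.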

Other observations

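The IPC Notch calls next to Bmpr1b depended on which start site of the neighbouring gene Pdlim5 was counted. Between these 2 genes, chr3:142208757-142210146 was in cluster 2 and was called for RBPJ in both cell types and for Notch in IPCs, 36.4 kb from a start site of Pdlim5 and 39.3 kb from one of Bmpr1b. The cluster 6 peak chr3:142236912-142238886 was called for Notch in both cell types, 7.66 kb from a start site of Pdlim5. Both were assigned to Pdlim5, and the latter would belong to Bmpr1b only with 1 start site per gene, at 67.5 kb.

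Among 443 genes with at least 8 consensus peaks, those whose shares over the 8 clusters and 4 lists lay closest to those of Bmpr1b were Arhgap21, Plekha7 and Limch1, at Euclidean distances of 0.242, 0.271 and 0.280. Arhgap21 and Limch1 had 8 peaks each and Plekha7 had 9, and all 3 had 2 RGC Notch peaks, as Bmpr1b did, and 1 IPC Notch peak, which Bmpr1b did not have. With 7 to 9 peaks a gene, a single peak moves such a distance.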
